A study of Mus musculus with 4 samples.

Results

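The genes described here are 9 transcription factor genes of the HOX machinery of blood stem cells: Hoxa5, Hoxa7, Hoxa9, Hoxa10, Hoxb4 and Hoxb5, and the genes of the partner proteins Meis1, Meis2 and Pbx3. They were chosen by symbol, as 9 of the 32285 genes counted in both single-cell libraries. The cells were LSKs, that is Lineage-negative, cKit-positive and Sca-1-positive bone marrow cells, the fraction that contains long-term hematopoietic stem cells (LT-HSCs) and multipotent progenitors. All mice were adult, on a C57BL/6 background. Wild-type mice carried floxed Sin3B alleles without Cre (Sin3B+/+ cells), and knockout mice carried floxed Sin3B with Vav1-iCre, which acts in hematopoietic cells from embryonic life onwards and not only in stem cells (Sin3B−/− cells). Sin3B encodes a scaffold of a histone deacetylase complex that represses transcription. In each condition 2 wild-type and 2 knockout mice were pooled by genotype, the pools carried different hashtag antibodies, and both were counted in 1 library. Mice at homeostasis received nothing, and mice under stress received 100 mg/kg 5-fluorouracil (5-FU), which kills cycling cells, by intraperitoneal injection 9 days before harvest. Each library is labelled with both genotypes, and the assignment of hashtags to genotypes came from the methods of the study.

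HOX proteins bind short AT-rich DNA motifs, and on DNA they pair with TALE homeodomain proteins of the PBX and MEIS families, which lengthen the motif and sharpen the choice of sites. In bone marrow the HOXA and HOXB clusters are most active in stem and early progenitor cells and are shut down as cells mature. HOXA9 is required for full stem cell repopulation and drives leukemia together with MEIS1, HOXB4 expands stem cells when forced to high levels, and a Hoxb5 reporter marks long-term repopulating cells. PBX3 is the PBX protein that accompanies HOXA9 and MEIS1 in leukemias with MLL fusions.

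Each condition had 1 pool per genotype, so genotypes within a condition were compared without a test. Values are unique molecular identifiers (UMIs, counted RNA molecules) of a gene per 1000000 gene UMIs of the pool (CPM), and the log2 ratio, knockout over wild type and with 0.5 counts added to each sum, is given with its exact 95% interval. These intervals cover counting error only and not the spread between mice. A gene needed 50 UMIs over both pools to be compared, and a log2 ratio of at least 0.5 in size was counted as higher or lower. The one test was edgeR's quasi-likelihood F-test for a genotype effect shared by both conditions, over the 4 pools with condition as a covariate and 1 residual degree of freedom.

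The kept cells numbered 10184 wild-type and 4108 knockout at homeostasis, and 4855 wild-type and 3307 knockout after 5-FU. The pools held 31901720 to 82876977 gene UMIs, with medians of 6607 to 10935 UMIs per cell and of 2.12 to 3.37% mitochondrial UMIs. Sin3b stood at 81.7 CPM (wild type) against 23.3 CPM (knockout) at homeostasis and at 112.7 against 15.1 CPM after 5-FU, so the hashtags separated cells by the targeted gene. At homeostasis 6283 barcodes carried no hashtag and had Sin3b at 29.0 CPM, and after 5-FU 3290 such barcodes had it at 21.7 CPM, both closer to the knockout level, and these were left out. The libraries shared 26 barcodes among the kept cells. All 9 LT-HSC markers were detected in every pool, as were at least some markers of B-lineage, dendritic, mast, erythroid, T and NK and endothelial cells, with at most 2 genes of a list at 0 in a pool and summed levels of 3.29 CPM (mast and basophil markers, knockout at homeostasis) to 493.2 CPM (dendritic markers, wild type at homeostasis). The dendritic list shared Flt3 and Ccr9 with the lymphoid-primed list, and Flt3 alone was at 376.4 CPM in that wild-type pool.

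RefSeq promoters (GRCm38.p6, 250 bases before to 50 bases after the start) were matched for 7 of the 9 genes. The windows of Hoxa10 and Hoxb4, both higher in the knockout pool at homeostasis, are shown with those of Hoxa9 and Meis1, whose levels differed little between genotypes. Capitals mark TTAT, the core preferred by posterior HOX proteins, and TAAT, the core preferred by most homeodomains, on either strand, so that ATAA and ATTA are capitals too.
Hoxa10, chr6:52240805-52241104, minus strand: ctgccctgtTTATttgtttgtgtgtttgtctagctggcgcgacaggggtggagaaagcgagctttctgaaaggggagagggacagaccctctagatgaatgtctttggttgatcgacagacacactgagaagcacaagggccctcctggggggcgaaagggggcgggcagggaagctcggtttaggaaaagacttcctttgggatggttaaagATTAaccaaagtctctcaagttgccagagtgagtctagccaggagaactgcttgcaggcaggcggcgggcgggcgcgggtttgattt
Hoxb4, chr11:96318017-96318316, plus strand: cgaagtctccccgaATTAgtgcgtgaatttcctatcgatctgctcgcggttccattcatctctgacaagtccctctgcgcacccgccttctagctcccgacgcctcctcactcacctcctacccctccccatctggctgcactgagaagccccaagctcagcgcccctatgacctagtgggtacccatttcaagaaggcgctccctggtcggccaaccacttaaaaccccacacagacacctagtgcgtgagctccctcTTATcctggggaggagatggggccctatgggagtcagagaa
Hoxa9, chr6:52227321-52227620, minus strand: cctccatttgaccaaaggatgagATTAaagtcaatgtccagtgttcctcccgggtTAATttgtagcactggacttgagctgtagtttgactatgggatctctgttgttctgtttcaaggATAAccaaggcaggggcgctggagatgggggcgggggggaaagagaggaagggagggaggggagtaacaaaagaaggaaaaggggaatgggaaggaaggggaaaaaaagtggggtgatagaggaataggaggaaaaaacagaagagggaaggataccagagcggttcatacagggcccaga
Meis1, chr11:19018920-19019219, minus strand: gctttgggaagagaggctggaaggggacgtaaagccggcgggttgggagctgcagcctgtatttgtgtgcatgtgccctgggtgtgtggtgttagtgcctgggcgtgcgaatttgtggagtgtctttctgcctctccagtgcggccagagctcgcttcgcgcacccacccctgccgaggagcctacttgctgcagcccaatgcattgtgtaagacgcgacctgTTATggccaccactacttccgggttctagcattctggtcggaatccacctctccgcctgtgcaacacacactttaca
The Hoxa10 window shown is 1 of 2 in the table. It and the Hoxb4 window each held 1 TTAT and 1 TAAT, that of Hoxa9 held 1 TTAT and 2 TAAT, and that of Meis1 held 1 TTAT alone, while the other Hoxa10 window held 2 TTAT and 3 TAAT. Such cores are common, since 64.1% of the 32851 promoters in the table held TTAT and 58.0% held TAAT. The MEIS motif TGACAG was in 19.2% of all promoters, the PBX and HOX motif TGATTTAT in 0.977% and the HOX9-type motif TTTATGG in 2.75%, searched on both strands. None of these 3 was found in the 8 windows of the 7 genes, which says only that these letters were absent there.

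Across all kept cells, 4 of the 8 genes that could be compared at homeostasis were higher in the knockout pool and 0 were lower, where 6.89% of all 15509 genes tested were higher and 6.44% lower. After 5-FU 3 of 9 were higher and 0 lower, against 4.89% and 6.51% of 13510 genes. Pbx3 and Hoxb5 were higher in both conditions, Hoxa10 and Hoxb4 at homeostasis, and Meis2 after 5-FU, whereas Hoxa7, Hoxa9 and Meis1 had log2 ratios of 0.25 or less in size in both.

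**Figure D1:**
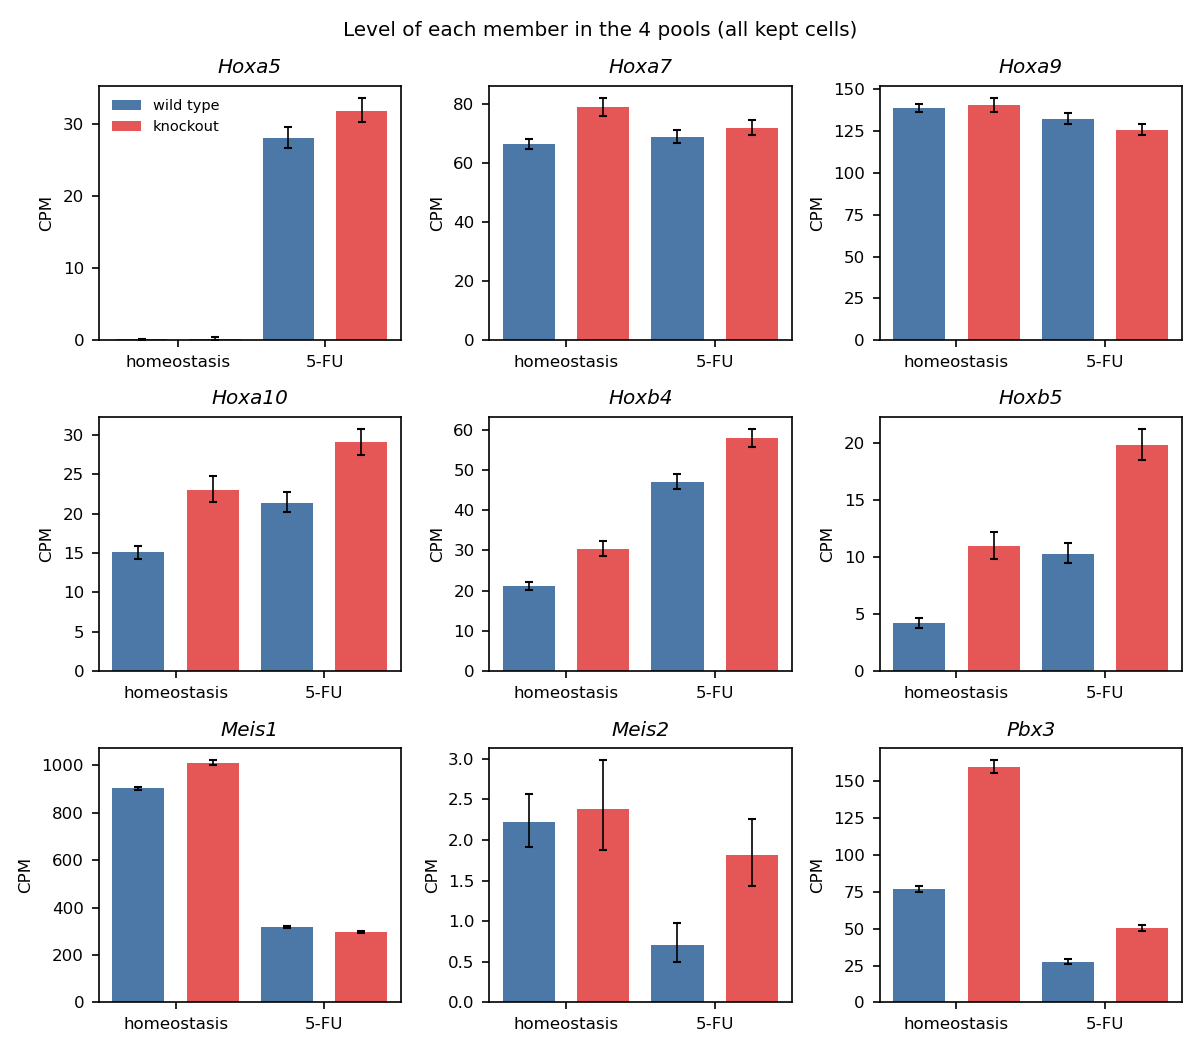
CPM of each of the 9 genes in the 4 pools (blue, wild type; red, knockout), with exact 95% Poisson intervals as error bars, which cover counting error only. Pbx3, Hoxb5 and Hoxa10 are higher in the knockout bar of both conditions, and Hoxa5 is near 0 in both homeostasis pools.

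Among the partners, Pbx3 was at 76.9 CPM in wild-type and 160.0 CPM in knockout cells at homeostasis, a log2 ratio of 1.06 (95% interval 1.003 to 1.109). After 5-FU it was at 27.7 CPM in wild-type and 50.3 CPM in knockout cells, a log2 ratio of 0.86 (0.76 to 0.96). The knockout pool was therefore at 2.08-fold and 1.82-fold the wild-type pool. Meis1, which keeps stem cells quiescent and is a direct partner of HOXA9, was at 903.0 and 1010 CPM at homeostasis (log2 ratio 0.16, 0.14 to 0.18) and at 319.2 and 296.5 CPM after 5-FU (−0.11, −0.14 to −0.07). Its ratio was small and opposite in sign in the 2 conditions, and that difference between conditions was not tested. Meis2, a close relative of Meis1, was rare, with 184 UMIs in wild-type and 76 UMIs in knockout cells at homeostasis (log2 ratio 0.11, −0.30 to 0.49). After 5-FU Meis2 had 37 and 79 UMIs, a log2 ratio of 1.35 (0.78 to 1.97).

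Of the HOXB genes, Hoxb5 was at 4.24 CPM in wild-type and 10.9 CPM in knockout cells at homeostasis, a log2 ratio of 1.37 (1.15 to 1.59). After 5-FU it was at 10.3 and 19.8 CPM, a log2 ratio of 0.94 (0.79 to 1.10). Hoxb4 was at 21.1 and 30.4 CPM at homeostasis (0.53, 0.41 to 0.64) and at 47.0 and 57.8 CPM after 5-FU (0.30, 0.22 to 0.38). Both HOXB genes were on the knockout side in both conditions, Hoxb5 by the larger ratio.

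Of the HOXA genes, Hoxa10, which acts in progenitor expansion and in the megakaryocyte and erythroid lineages, was at 15.1 CPM in wild-type and 23.0 CPM in knockout cells at homeostasis (log2 ratio 0.61, 0.48 to 0.75). After 5-FU Hoxa10 was at 21.4 and 29.0 CPM (0.44, 0.32 to 0.56). Hoxa9 was at 138.5 and 140.2 CPM at homeostasis (0.02, −0.03 to 0.07) and at 132.2 and 125.7 CPM after 5-FU (−0.07, −0.12 to −0.02). Its level in both pools of a condition was thus close, with intervals well inside 0.5. Hoxa7, a neighbour of Hoxa9 in the cluster, was at 66.6 and 79.0 CPM at homeostasis (0.25, 0.18 to 0.31) and at 69.1 and 72.1 CPM after 5-FU (0.06, −0.01 to 0.13). Hoxa5, a gene from the middle of the cluster, had 11 and 6 UMIs at homeostasis, too few to compare, and was at 28.1 and 31.8 CPM after 5-FU (0.18, 0.08 to 0.29).

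**Figure D2:**
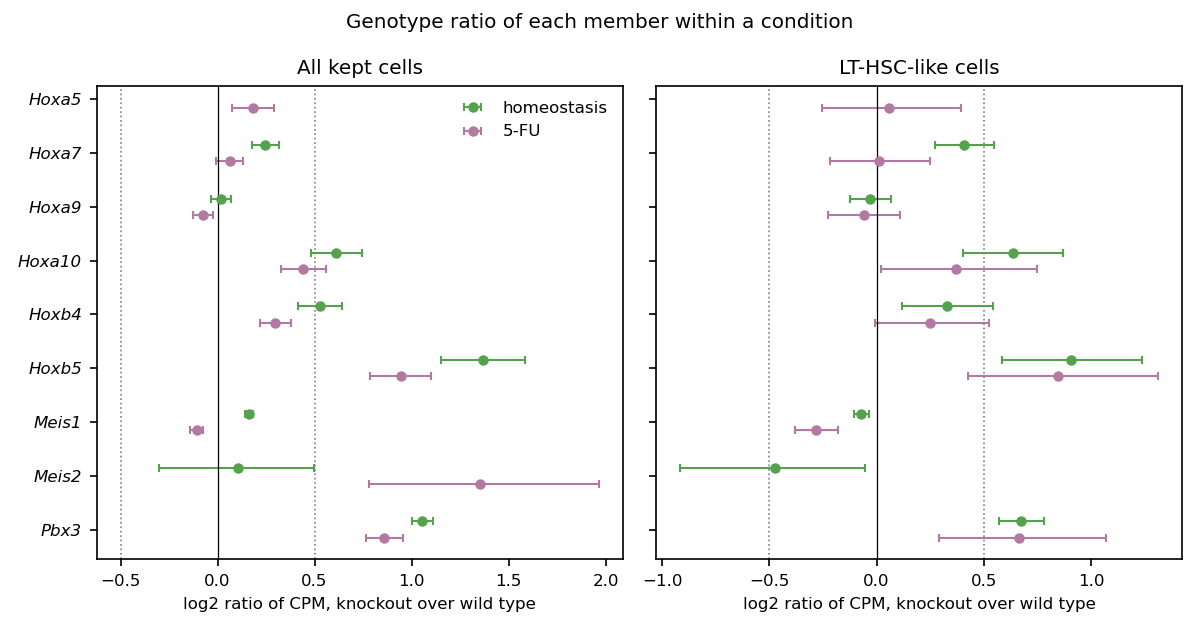
Log2 ratio of CPM, knockout over wild type, for each gene within each condition (green, homeostasis; purple, 5-FU), over all kept cells (left) and LT-HSC-like cells (right), with exact 95% intervals as bars and dotted lines at −0.5 and 0.5. Pbx3 and Hoxb5 lie above 0.5 in both conditions and both panels, while Hoxa9 lies near 0 throughout.

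The make-up of the pools differed by genotype. At homeostasis the summed level of the 9 LT-HSC markers was 2594 CPM in wild-type and 3161 CPM in knockout cells, and that of the 8 lymphoid-primed markers, all detected, was 1171 and 832.5 CPM. After 5-FU the LT-HSC markers summed to 2086 and 1941 CPM and the lymphoid-primed markers to 511.8 and 274.7 CPM. When each cluster was given the same weight in both genotypes, the homeostasis log2 ratio was 0.89 for Pbx3, 0.80 for Hoxb5, 0.25 for Hoxa10, 0.26 for Hoxb4 and −1.70 for Meis2, and the 5-FU ratio was 0.78 for Pbx3, 0.65 for Hoxb5 and 0.66 for Meis2. Pbx3 and Hoxb5 therefore stayed above 0.5 at fixed cluster weights, and Hoxa10 and Hoxb4 did not. The clusters at homeostasis were themselves uneven by genotype. Knockout cells made up 95.0% of cluster 8 and 83.7% of cluster 6. They made up 3.76% of cluster 3 and 1.31% of cluster 9 (13 cells). Fixed weights therefore do not ensure that matched cell types were compared. In pooled counts, more cells of a type and more RNA per cell cannot be told apart.

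The test over the 4 pools called 3 of the 9 genes, all higher in knockout cells, where 0.918% of the 16441 genes tested were called higher and 0.766% lower. By edgeR's quasi-likelihood test with Benjamini-Hochberg adjustment over all genes, Pbx3 rose by a log2 fold change of 0.97 (adjusted p = 0.0057), Hoxb5 by 1.16 (adjusted p = 0.014) and Hoxa10 by 0.54 (adjusted p = 0.0498). Hoxb4 had an edgeR log2 fold change of 0.42 (adjusted p = 0.081) and was not called. The edgeR estimates were 0.17 for Hoxa7 (adjusted p = 0.43), 0.23 for Hoxa5 (adjusted p = 0.52), 0.67 for Meis2 (adjusted p = 0.42), 0.04 for Meis1 (adjusted p = 0.90) and −0.01 for Hoxa9 (adjusted p = 0.96). With DESeq2 in place of edgeR, Pbx3 (adjusted p = 3.2e-12) and Hoxb5 (adjusted p = 0.0028) were called and Hoxa10 was not (adjusted p = 0.16). Without the trim of extreme cells, edgeR gave Hoxb5 1.10 (adjusted p = 0.054) and Hoxa10 0.50 (adjusted p = 0.146), and where 1 tag had to hold at least 80% of the hashtag UMIs it gave Hoxa10 0.48 (adjusted p = 0.134), so that these calls were lost at a similar fold.

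LT-HSC-like cells were clusters named from 9 fixed stem cell markers, with the genes described here and other homeobox genes left out of the clustering. At homeostasis the class held 1674 cells of the wild-type pool and 1381 of the knockout pool, and after 5-FU it held 337 and 847. Their summed LT-HSC markers were at 4628 and 4995 CPM at homeostasis and 3107 and 3372 CPM after 5-FU, and Sin3b was at 77.7 and 23.4 CPM and at 78.2 and 21.9 CPM. At homeostasis the genotypes filled different clusters of this class: cluster 5 held 362 wild-type and 1337 knockout cells, and cluster 7 held 1312 wild-type and 44 knockout cells. A single cluster made up the class after 5-FU. Clusters 7 and 10 of the 5-FU library raised 6 and 8 of the 9 LT-HSC markers but were not named, because their 10 leading genes held a marker of another list. That marker was Wfdc17 (lymphoid-primed list) in cluster 7 and Klrb1c (T and NK list) in cluster 10. LT-HSC markers were absent from the leading genes of both and also of the named 5-FU cluster 5, which raised 6 of 9.

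Within LT-HSC-like cells, 3 of 8 genes were higher in knockout cells at homeostasis and 0 lower, against 4.23% and 7.5% of 12468 genes tested. Meis2, at −0.48, was just short of being counted as lower, and most alternative settings placed it past −0.5, down to −3.06. After 5-FU 2 of 8 were higher and 0 lower, against 5.55% and 4.73% of 10159 genes. Pbx3 was at 115.8 CPM in wild-type and 184.9 CPM in knockout cells at homeostasis (log2 ratio 0.67, 0.57 to 0.78) and at 30.9 and 49.3 CPM after 5-FU (0.66, 0.29 to 1.07). Hoxb5 was at 11.4 and 21.4 CPM at homeostasis (0.91, 0.58 to 1.24) and at 23.6 and 42.8 CPM after 5-FU (0.85, 0.43 to 1.31). Hoxa10 was at 24.2 and 37.6 CPM at homeostasis (0.64, 0.40 to 0.87) and at 36.8 and 47.8 CPM after 5-FU (0.37, 0.02 to 0.75). The same 3 genes thus stood on the knockout side in LT-HSC-like cells, with Hoxa10 past 0.5 only at homeostasis. In unnamed cluster 10 after 5-FU, with 79 wild-type and 116 knockout cells, Hoxb5 was at 65.9 and 55.7 CPM (−0.25, −0.81 to 0.34), Hoxa10 at 58.4 and 26.2 CPM (−1.15, −1.89 to −0.44) and Pbx3 at 55.4 and 65.0 CPM (0.22, −0.35 to 0.84). In unnamed cluster 7 Hoxb5 had a log2 ratio of 0.51 (0.19 to 0.83), Hoxa10 of 0.07 (−0.17 to 0.32) and Pbx3 of 0.68 (0.46 to 0.89).

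Hoxb4 was at 32.1 and 40.3 CPM in LT-HSC-like cells at homeostasis (log2 ratio 0.33, 0.12 to 0.54) and at 68.2 and 81.3 CPM after 5-FU (0.25, −0.01 to 0.52). Hoxa7 was at 75.3 and 100.0 CPM at homeostasis (0.41, 0.27 to 0.55) and at 92.7 and 93.6 CPM after 5-FU (0.01, −0.22 to 0.25). Hoxa9 was at 171.9 and 168.5 CPM (−0.03, −0.13 to 0.07) and at 179.5 and 172.3 CPM (−0.06, −0.23 to 0.11). None of these reached 0.5. Meis1 was at 1327 and 1262 CPM at homeostasis (−0.07, −0.11 to −0.04) and at 516.2 and 424.5 CPM after 5-FU (−0.28, −0.38 to −0.18). The 5-FU value of Meis1 was −0.01 when 2 further clusters with raised LT-HSC markers were counted in the class. Hoxa5 had 105 UMIs in wild-type and 332 UMIs in knockout cells after 5-FU (0.06, −0.26 to 0.39).

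The separate clusters at homeostasis changed some of these ratios. In cluster 5, Hoxb5 was at 20.3 CPM in wild-type and 21.3 CPM in knockout cells (log2 ratio 0.06, −0.42 to 0.58), and in cluster 7 it was at 9.46 CPM in wild-type cells and had 9 UMIs in knockout cells (1.44, 0.19 to 2.35). Pbx3 was at 155.8 and 185.1 CPM in cluster 5 (0.25, 0.08 to 0.42) and at 107.1 and 178.8 CPM in cluster 7 (0.75, 0.36 to 1.10). Wild-type cells of cluster 5 thus already carried more Hoxb5 and Pbx3 than those of cluster 7. Meis2 went the other way, at 35.0 CPM in wild-type (76 UMIs) and 8.17 CPM in knockout cells (68 UMIs) of cluster 5 (−2.10, −2.59 to −1.61). In cluster 7 Meis2 had 60 wild-type and 2 knockout UMIs (6.04 and 5.42 CPM). Its log2 ratio there was 0.15 (−3.24 to 1.76), positive only through the 0.5 counts added to each sum. Over both clusters its log2 ratio was −0.48 (−0.92 to −0.05). With both clusters given the same weight in each genotype, the LT-HSC-like ratio at homeostasis was 0.44 for Pbx3, 0.55 for Hoxb5, 0.31 for Hoxa10 and −1.67 for Meis2.

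Over the 4 pools of LT-HSC-like cells, edgeR called the same 3 genes, where 1.59% of 12989 genes tested were called higher and 1.77% lower. Pbx3 rose by a log2 fold change of 0.71 (edgeR adjusted p = 0.00056), Hoxb5 by 0.91 (edgeR adjusted p = 0.0026) and Hoxa10 by 0.56 (edgeR adjusted p = 0.024). Hoxb4 had an edgeR estimate of 0.32 (adjusted p = 0.14), Hoxa7 of 0.27 (adjusted p = 0.21), Meis1 of −0.15 (adjusted p = 0.45) and Meis2 of −0.21 (adjusted p = 0.81). DESeq2 called 0 of the 9 in these cells, with adjusted p = 0.13 for Pbx3 and 0.89 for Hoxb5, although its unadjusted p was 0.00047 for Pbx3 and 0.0097 for Hoxb5. Where 1 tag had to hold at least 80% of the hashtag UMIs, the edgeR estimate was 0.07 for Hoxa10 (adjusted p = 0.90), 0.67 for Hoxb5 (adjusted p = 0.13) and 0.78 for Pbx3 (adjusted p = 0.021). Without the trim of extreme cells, edgeR gave Hoxa10 0.27 (adjusted p = 0.495), Hoxb5 0.48 (adjusted p = 0.045) and Pbx3 0.51 (adjusted p = 0.0014).

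Single clusters gave a view of the genotype ratio at a finer scale, in clusters with at least 20 cells of each genotype and 20 UMIs of the gene. Pbx3 was above 0 in 12 of 13 clusters at homeostasis (median log2 ratio 0.78, range −0.02 to 1.54) and in 11 of 11 after 5-FU (median 0.72, range 0.22 to 1.38). Hoxb5 was above 0 in 8 of 9 clusters at homeostasis (median 1.09, range −0.17 to 2.05) and in 8 of 10 after 5-FU (median 0.69, range −0.49 to 1.70). Its ratio was near 0 in cluster 5, which held most knockout LT-HSC-like cells at homeostasis. Hoxb4 was above 0 in 8 of 12 and 9 of 11 clusters, and Hoxa10 in 10 of 12 and 8 of 11. Meis1 was above 0 in only 3 of 13 clusters at homeostasis and 2 of 11 after 5-FU, with medians of −0.07 and −0.16, although its ratio over all kept cells at homeostasis was 0.16. Hoxa9 was above 0 in 8 of 13 and 6 of 11 clusters, with medians of 0.03 and 0.01.

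**Figure D3:**
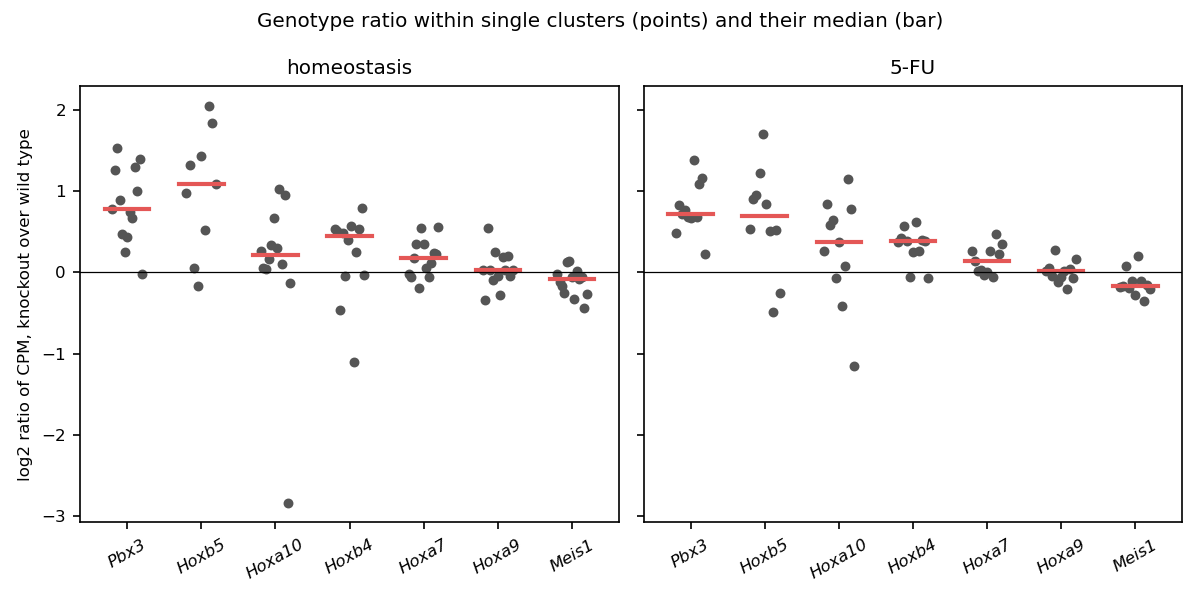
Log2 ratio of CPM, knockout over wild type, of 7 genes within single clusters of each library (points), with the median over clusters as a red bar. All Pbx3 points after 5-FU lie above 0, and most Meis1 points lie just under 0 in both libraries.

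Pbx3 in named classes showed the same side. In megakaryocyte-erythroid-primed-like cells it was at 123.6 CPM in wild-type and 212.2 CPM in knockout cells at homeostasis (log2 ratio 0.78, 0.59 to 0.97) and at 42.5 and 59.6 CPM after 5-FU (0.49, 0.27 to 0.71). In lymphoid-primed-like cells it was at 39.1 and 105.0 CPM at homeostasis (1.43, 1.09 to 1.75), where the knockout cells had 91 UMIs of the gene. In G2 and mitotic-like cells it was at 68.9 and 167.7 CPM (1.28, 1.14 to 1.42) and at 26.2 and 56.9 CPM (1.12, 0.88 to 1.36). Most wild-type cells of this class were in clusters led by histone genes, 10 at homeostasis (891 of 1221) and 9 after 5-FU (274 of 404). Both clusters raised 8 of 8 G2 and mitotic markers and also 7 of 8 S phase markers. At homeostasis the class with the lowest wild-type level, the lymphoid-primed-like cells, had the largest ratio of the named classes. After 5-FU that class was again lowest in wild type, at 11.4 CPM against 18.2 CPM in knockout cells (0.68, −0.16 to 1.48). Its ratio there was below those of G2 and mitotic-like and myeloid-primed-like cells (1.12 and 0.84). Hoxa10 had 198 UMIs in wild-type and 1 UMI in knockout lymphoid-primed-like cells at homeostasis (−3.07, −8.97 to −1.16), the only named class in which it was at least 0.5 lower, and after 5-FU it was at 21.8 and 20.5 CPM there (−0.07, −0.80 to 0.59).

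The gradients across cell classes were described in wild-type cells, as clusters of 1 library are not replicates. Classes were set side by side within a library, since similar clusters could take different names: cluster 1 of each library raised 8 of 8 S phase markers and 4 of 8 myeloid-primed markers, and it was the S phase-like class at homeostasis and the myeloid-primed-like class after 5-FU. Other named classes were mixed too. Megakaryocyte-erythroid-primed-like cluster 0 raised 7 of 8 of its own markers in each library, with 8 of 8 S phase markers at homeostasis and 6 of 8 after 5-FU. Lymphoid-primed-like cluster 4 after 5-FU raised 7 of 8 lymphoid-primed and 7 of 8 B-lineage markers. The orders of levels are among the named classes, and some unnamed clusters were higher. After 5-FU the small unnamed cluster 10 was the highest wild-type cluster for Hoxb5 (65.9 CPM), Hoxb4 (103.3 CPM), Hoxa10 (58.4 CPM) and Hoxa5 (65.9 CPM), of the clusters with at least 20 such cells. At homeostasis unnamed cluster 8 was the highest for Hoxb4 (44.5 CPM), on 11 UMIs in 42 wild-type cells, close to LT-HSC-like cluster 5 at 41.0 CPM. Compared with all other wild-type cells, LT-HSC-like cells were at least 0.5 higher on the log2 scale for 6 of 8 genes at homeostasis and lower for 0, against 21.3% and 9.64% of 14799 genes. After 5-FU they were higher for 5 of 8 and lower for 0, against 21.2% and 14.6% of 12636 genes. The other cells after 5-FU included unnamed clusters 7 and 10, which also raised LT-HSC markers. Those clusters held 1108 and 79 wild-type cells, against 337 LT-HSC-like cells. The median of all genes was itself shifted, by 0.13 at homeostasis and 0.085 after 5-FU. Relative to that shift, the genes counted as higher still leaned towards stem-like cells. The shift lay inside the interval of Hoxa7 at homeostasis (0.21, 0.11 to 0.31) and of Pbx3 after 5-FU (0.18, −0.21 to 0.52).

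**Figure D4:**
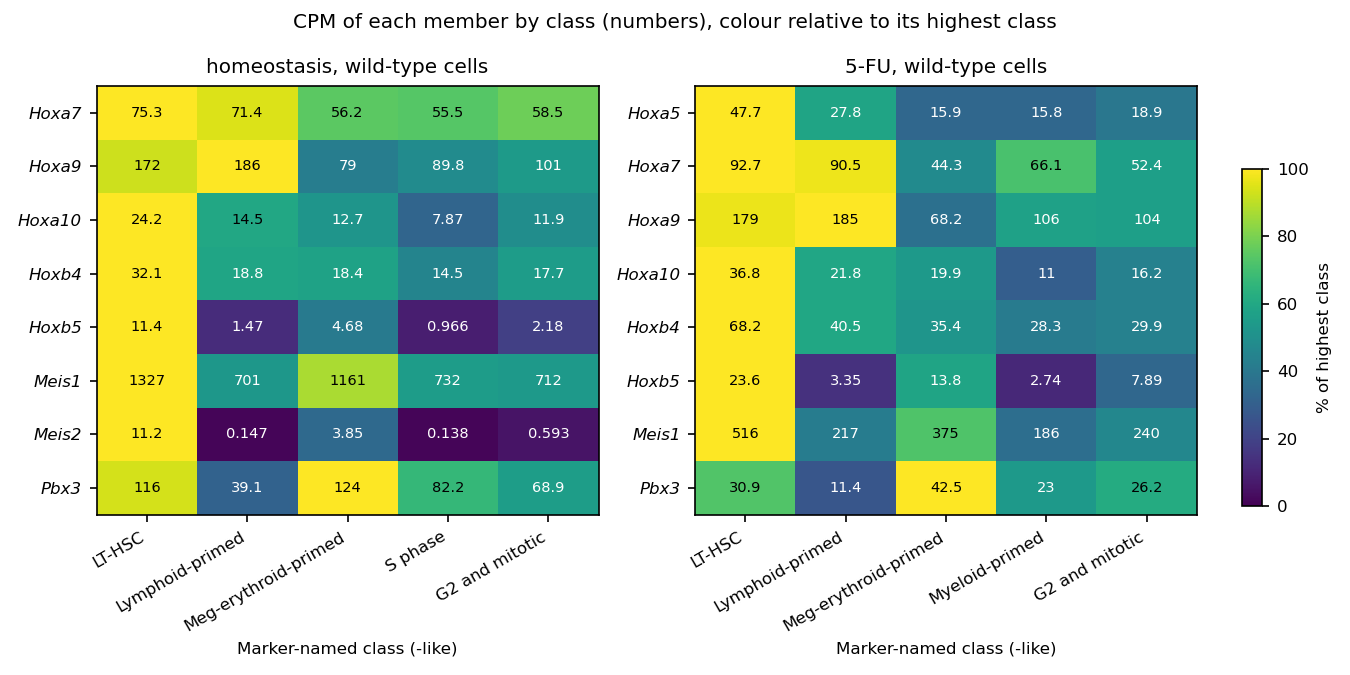
CPM of each gene in the named classes of wild-type cells at homeostasis (left) and after 5-FU (right), coloured as a percentage of the gene's highest class. LT-HSC-like cells are the highest class for every gene shown except Hoxa9, highest in lymphoid-primed-like cells, and Pbx3, highest in megakaryocyte-erythroid-primed-like cells.

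Meis2 and Hoxb5 had the steepest gradients. Meis2 was at 11.2 CPM in LT-HSC-like and 0.678 CPM in the other wild-type cells at homeostasis (log2 ratio 4.04, 3.57 to 4.56), with 3.85 CPM in megakaryocyte-erythroid-primed-like cells and 0.138 to 0.593 CPM (1 to 9 UMIs) in the other named classes. Cluster 5, at 35.0 CPM, held 76 of its 136 UMIs in LT-HSC-like cells. Hoxb5 was at 11.4 CPM in LT-HSC-like and 3.01 CPM in the other cells at homeostasis (1.92, 1.60 to 2.24) and at 23.6 and 9.71 CPM after 5-FU (1.30, 0.84 to 1.70). Among the named classes Hoxb5 was next highest in megakaryocyte-erythroid-primed-like cells in both libraries, at 4.68 and 13.8 CPM. After 5-FU its interval in that class was apart from those of the classes on either side. Of unnamed clusters with at least 20 wild-type cells, 3, 4, 6 and 14 at homeostasis (4.87 to 6.78 CPM, with 2 UMIs in cluster 4) were higher. So were 7 and 10 after 5-FU (16.2 and 65.9 CPM).

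Of the named classes, LT-HSC-like cells had the highest Hoxb4 and Hoxa10, followed by lymphoid-primed-like cells, in both libraries. For Hoxb4 the levels were 32.1 and 18.8 CPM at homeostasis and 68.2 and 40.5 CPM after 5-FU, and its classes below LT-HSC-like cells had overlapping intervals between neighbours. For Hoxa10 they were 24.2 and 14.5 CPM at homeostasis and 36.8 and 21.8 CPM after 5-FU, with the lowest level of the named classes in cluster 1 of each library, S phase-like at homeostasis (7.87 CPM) and myeloid-primed-like after 5-FU (11.0 CPM). Hoxa5, compared only after 5-FU, had the same order at the top of the named classes, with 47.7 CPM in LT-HSC-like and 27.8 CPM in lymphoid-primed-like cells.

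Hoxa9 had a different order, with 186.0 CPM in lymphoid-primed-like, 171.9 CPM in LT-HSC-like and 79.0 CPM in megakaryocyte-erythroid-primed-like cells at homeostasis. After 5-FU these were 184.9, 179.5 and 68.2 CPM. The separate intervals of the first 2 overlapped in both libraries, narrowly at homeostasis. The interval of their ratio set them apart at homeostasis but not after 5-FU. Its highest cluster at homeostasis was lymphoid-primed-like cluster 13, at 361.0 CPM in 206 wild-type cells, whereas cluster 12, with 1715 of the wild-type cells of that class, was at 166.7 CPM. Hoxa7 was close in LT-HSC-like and lymphoid-primed-like cells in both libraries (75.3 and 71.4 CPM, 92.7 and 90.5 CPM), with overlapping intervals. At homeostasis its lowest value was in S phase-like cells (55.5 CPM). That interval overlapped those of megakaryocyte-erythroid-primed-like (56.2 CPM) and G2 and mitotic-like cells (58.5 CPM). After 5-FU it was lowest in megakaryocyte-erythroid-primed-like cells (44.3 CPM).

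Of the partners, Meis1 was, among the named classes, highest in LT-HSC-like cells (1327 CPM at homeostasis, 516.2 CPM after 5-FU) and next in megakaryocyte-erythroid-primed-like cells (1161 and 374.9 CPM), with the lowest level in lymphoid-primed-like cells at homeostasis (701.0 CPM) and in myeloid-primed-like cells after 5-FU (185.9 CPM), a class with no counterpart of that name at homeostasis. At homeostasis the Meis1 interval in lymphoid-primed-like cells overlapped that in G2 and mitotic-like cells (711.6 CPM). Unnamed cluster 6 at homeostasis (1260 CPM) and unnamed clusters 3, 6 and 10 after 5-FU (396.6, 478.9 and 420.6 CPM) were above the megakaryocyte-erythroid-primed-like level of Meis1. Among the named classes, Pbx3 was highest in megakaryocyte-erythroid-primed-like cells (123.6 and 42.5 CPM) and lowest in lymphoid-primed-like cells (39.1 and 11.4 CPM). At homeostasis the interval of Pbx3 in LT-HSC-like cells overlapped that of its highest class. By single cluster, wild-type Pbx3 was highest in clusters with raised LT-HSC markers, LT-HSC-like cluster 5 at homeostasis (155.8 CPM) and unnamed cluster 10 after 5-FU (55.4 CPM).

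In knockout cells the gradient of Pbx3 was flatter, with 184.9 CPM in LT-HSC-like and 150.7 CPM in other cells at homeostasis (log2 ratio 0.30, 0.21 to 0.38, against 0.72 in wild type) and 49.3 and 50.5 CPM after 5-FU (−0.03, −0.21 to 0.14, against 0.18). Meis1 had a knockout gradient of 0.46 at homeostasis and 0.63 after 5-FU, against 0.68 and 0.73 in wild type. Hoxa10 had knockout gradients of 1.10 and 0.90, Hoxb4 of 0.59 and 0.60 and Hoxb5 of 1.61 and 1.45, so that these 3 stayed at least 0.5 higher in LT-HSC-like cells of both genotypes. The differences between genotypes in these gradients were not tested. After 5-FU the other cells of both genotypes included unnamed clusters 7 and 10, which also raised LT-HSC markers.

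The other genes of both Hox clusters were compared in the same way, with 50 UMIs required. In the Hoxb cluster, including Hoxb4 and Hoxb5, 7 of 7 genes at homeostasis were at least 0.5 higher in knockout cells (median log2 ratio 1.48, range 0.53 to 3.29), and after 5-FU 6 of 8 were (median 1.27, range 0.30 to 2.26), with all 8 intervals above 0. In the Hoxa cluster, with the HOXA genes above included, 1 of 5 and 0 of 8 genes were higher, with medians of 0.25 and 0.02. Of all genes tested, 6.89% at homeostasis and 4.89% after 5-FU were at least 0.5 higher, with medians of 0.006 and −0.018. No direct test of the difference between the clusters was made. These ratios are over all kept cells, whose make-up differed by genotype. With fixed weights of the cell clusters, Hoxb4 was at 0.26 and Hoxb5 at 0.80 at homeostasis. After 5-FU they were at 0.31 and 0.65. For the other Hoxb genes no ratio at fixed weights is given.

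**Figure D5:**
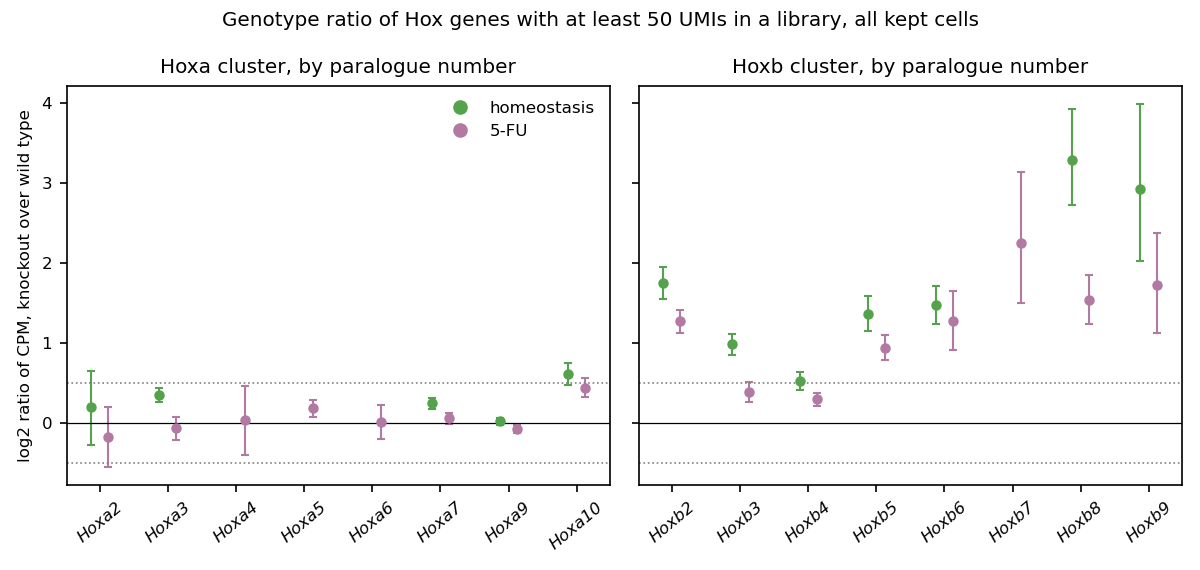
Log2 ratio of CPM, knockout over wild type, for the Hoxa genes (left) and Hoxb genes (right) with at least 50 UMIs in a library, over all kept cells, in order of paralogue number, with exact 95% intervals. All Hoxb points lie above 0 in both libraries, while most Hoxa points lie near 0 and Hoxa10 is the highest of them.

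Among the neighbours, Hoxb8, which holds progenitors in an immature state when forced, was at 0.374 CPM in wild-type and 3.70 CPM in knockout cells at homeostasis (log2 ratio 3.29, 2.72 to 3.93) and at 2.40 and 7.02 CPM after 5-FU (1.54, 1.24 to 1.86). Hoxb2 was at 4.43 and 14.9 CPM (1.75, 1.55 to 1.95) and at 11.6 and 28.0 CPM (1.27, 1.13 to 1.42). Hoxb6 was at 3.48 and 9.69 CPM (1.48, 1.24 to 1.72) and at 1.81 and 4.40 CPM (1.28, 0.92 to 1.65). Hoxb3 was at 13.2 and 26.1 CPM (0.99, 0.86 to 1.12) and at 17.7 and 23.2 CPM (0.39, 0.26 to 0.52). Of 12 other Hox genes tested with edgeR over all kept cells, 5 rose and 0 fell, where 0.918% of all genes tested were called higher and 0.766% lower. The median log2 fold change of the 12 was 0.52, against 0.003 over all genes. The 5 that rose were Hoxb2 (edgeR adjusted p = 0.0061), Hoxb6 (0.013), Hoxb7 (0.031), Hoxb8 (0.035) and Hoxb9 (0.038), of which Hoxb7 and Hoxb9 had few UMIs and are named because they were called. In LT-HSC-like cells 6 of 9 rose and 0 fell, the same 5 and Hoxb3 (edgeR adjusted p = 0.010), where 1.59% of all genes tested were called higher. The lowest adjusted p there was that of Hoxb8 (edgeR, 3.8e-05), at 1.40 and 11.3 CPM in LT-HSC-like cells at homeostasis and 3.64 and 21.5 CPM after 5-FU. At homeostasis most wild-type cells of this class were in cluster 7 (1312) and most knockout cells in cluster 5 (1337). No values within clusters or under other settings are given for these neighbours. In these cells edgeR called 437 genes in all, DESeq2 39, and edgeR 27 under the 80% tag rule.

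Of the Hoxa neighbours, Hoxa3 was at 41.4 and 52.7 CPM at homeostasis (log2 ratio 0.35, 0.26 to 0.43) and 17.8 and 17.0 CPM after 5-FU (−0.07, −0.21 to 0.07). Hoxa6, at 18 UMIs in all at homeostasis, was at 8.02 and 8.09 CPM after 5-FU (0.01, −0.20 to 0.22), and Hoxa2 had log2 ratios of 0.20 and −0.17. None of the Hoxa neighbours was called by edgeR.

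Of the other TALE genes, 7 of 8 were tested and 0 rose in either set of cells, with edgeR medians of −0.16 over all kept cells and −0.15 in LT-HSC-like cells. Of all genes tested, 0.918% and 1.59% were called higher in these sets, and 0.766% and 1.77% lower. Tgif2, of a family that represses and can compete with MEIS for sites, fell by 0.70 on the log2 scale over all kept cells (edgeR adjusted p = 0.038), with 13.9 and 8.78 CPM at homeostasis and 14.4 and 8.48 CPM after 5-FU. Pbx4 fell by 1.19 in LT-HSC-like cells (edgeR adjusted p = 0.027), with 33.6 and 11.2 CPM at homeostasis, but it had 7 and 32 UMIs after 5-FU, and over all kept cells its log2 ratio was −1.34 at homeostasis and 0.31 after 5-FU. Pbx2 had log2 ratios of 0.16 and 0.05. Pknox1 had log2 ratios of −0.25 and −0.09, and Tgif1 of −0.24 and −0.40.

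Of 16 tested regulators of Hox expression, among them Kmt2a, Men1, Dot1l and the polycomb genes Ezh2, Bmi1 and Ring1, edgeR called 0 in all kept cells and 0 in LT-HSC-like cells, with medians of −0.005 and −0.016. Of all genes tested, only 277 of 16441 and 437 of 12989 were called. At an unadjusted edgeR p below 0.05 stood Men1, Rnf2 and Cbx2 over all kept cells, with log2 fold changes of 0.26, −0.21 and −0.36, and Men1 alone in LT-HSC-like cells (0.42), where 2420 of 16441 and 1940 of 12989 genes tested were below it. Of 18 genes known to respond to HOXA9 or MEIS1, edgeR called 2 lower and 0 higher over all kept cells (median −0.21), where 0.766% of all genes tested were called lower. The 2 were Dlk1, at −1.99 (edgeR adjusted p = 0.021), and Cdk6, a cell cycle kinase, at −0.52 (edgeR adjusted p = 0.035). In LT-HSC-like cells 5 of 16 were lower and 0 higher (median −0.19, against −0.002 over all genes), where 1.77% of all genes tested were called lower. Markers of other cell types differed in these cells too. The 8 lymphoid-primed markers summed to 582.9 CPM in wild-type and 327.5 CPM in knockout LT-HSC-like cells at homeostasis and to 270.4 and 189.1 CPM after 5-FU, the 7 dendritic markers, Flt3 among them, to 317.0 and 167.6 CPM and to 138.6 and 105.0 CPM, and the 6 erythroid markers to 107.2 and 44.1 CPM and to 15.9 and 67.7 CPM. Their part in the result was not tested. Flt3, the receptor that marks lymphoid-biased progenitors, fell by 0.81 (edgeR adjusted p = 0.00021), with 231.2 and 120.6 CPM at homeostasis and 55.4 and 35.8 CPM after 5-FU. Cdk6 fell by 0.86 (edgeR adjusted p = 0.0011), the kinase gene Syk by 0.59 (edgeR adjusted p = 0.0028), Sox4 by 0.38 (edgeR adjusted p = 0.013) and the chemokine gene Ccl3 by 0.82 (edgeR adjusted p = 0.032). Flt3 was itself one of the lymphoid-primed markers used to name clusters. At homeostasis the wild-type cells of this class were mostly in cluster 7 and the knockout cells mostly in cluster 5. These clusters raised 6 and 9 of the 9 LT-HSC markers. For the 5 genes no values within clusters or under other settings are given. Of all genes in these cells, DESeq2 called 39 and edgeR under the 80% tag rule 27, against 437.

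For the 7 genes with at least 500 UMIs in both libraries, the genes of most similar pattern were those with the highest Pearson correlation of log2(CPM + 1) over clusters of wild-type cells, among 9893 genes, taking the smaller of both libraries. The points, 15 clusters at homeostasis and 12 after 5-FU, share a library and its depth, so the values are descriptive. Pbx3 was most like Plxdc2 (r = 0.927 and 0.924), Hoxa9 most like Tecpr1 (0.905 and 0.911), Hoxb5 most like the stem cell gene Mllt3 (0.879 and 0.901), Hoxa10 most like Pik3r1 (0.855 and 0.902), Hoxb4 most like Fam43a (0.864 and 0.935), Meis1 most like Arhgap6 (0.907 and 0.874) and Hoxa7 most like Zfp637 (0.783 and 0.773). None of the top 3 for any gene was another of the 9. Without a cluster of 13 cells after 5-FU, Hoxa9 kept its 3 most similar genes, and the leading gene of the other 6 changed. For Pbx3 it became Nupr1 (0.898 and 0.907), with Plxdc2 next.

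Some of these genes overlap others in the annotation. Hoxa5 lies within the annotated span of Hoxa3 on the same strand, and the 2 libraries were counted with different Cell Ranger releases, 4 at homeostasis and 6.0.1 after 5-FU. Hoxa5 was at 0.133 and 0.188 CPM at homeostasis against 28.1 and 31.8 CPM after 5-FU, and Hoxa3 was at 44.5 CPM over both pools at homeostasis against 17.5 CPM after 5-FU. These levels are given side by side, since treatment, library and counting release cannot be told apart. Hoxa7, Hoxb5 and Pbx3 overlap genes on the opposite strand (Hoxaas3, Hoxb5os and C79798), and Meis1 overlaps short noncoding genes on both strands. Meis1, Meis2 and Pbx3 span 139169, 202776 and 201686 bases, against 2786 to 9658 bases for the HOX genes.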

How the data were processed

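Single-cell RNA-seq counts with hashtag counts were analysed for LSKs of 2 conditions, 1 library each. The deposited matrices hold raw counts, UMIs per gene and barcode with the hashtags as the last 2 rows, made by the authors with Cell Ranger (releases 4 and 6.0.1). The submitters' notes name the mm9 build, and the annotation was not given in those notes. Of 6794880 listed barcodes at homeostasis, those with at least 2921 UMIs were taken as cells (23931), and all 12753 after 5-FU.

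Hashtags were called with HTODemux (Seurat 5.3.0, positive quantile 0.99), and barcodes with both tags were removed as doublets (1441 and 434). Cells at either 2% extreme of UMIs, detected genes or mitochondrial percentage, or with 2 or more UMIs of 9 lineage genes, were removed. Clusters (scanpy 1.11.5, Leiden resolution 1, 2000 variable genes, 30 components, 20 neighbours) were named from marker lists (at least 3 markers, and at least 50% of the list, raised 1.5-fold and at 5 CPM). Cell type lists were tried before the S phase and the G2 and mitotic lists. A cluster whose 10 leading genes held more markers of another list lost its cell type name. This left 5-FU clusters 7 and 10 (LT-HSC markers) and homeostasis cluster 14 (B-lineage markers) unnamed. Homeostasis cluster 1 (4 of 8 myeloid-primed markers) took the S phase name instead. Cluster 9 after 5-FU (6 of 8 megakaryocyte-erythroid-primed markers), led by histone genes, took the G2 and mitotic name. The handling of clusters led by histone genes was set after cluster markers were seen. UMIs were summed per genotype, condition and cluster. Genotype was tested over the 4 pools with edgeR 4.0.16 (TMM, at least 50 UMIs over the pools, Benjamini-Hochberg, 0.05), and DESeq2 1.42.0 was an alternative. The edgeR step was tested on simulated counts. Mice were pooled, with 1 pool per genotype and condition, so p-values hold no spread between replicate pools or mice. The 1 residual degree of freedom measures how far the genotype effect differed between the conditions. The test leaned mostly on variance shared over genes (prior degrees of freedom 6.075 over all kept cells, 13.86 in LT-HSC-like cells). The intervals of counts cover counting error only.

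The 9 genes, the lists and the markers were chosen with earlier results of these data known. Named beside the 9 were list genes with at least 200 UMIs in a library (Hox and TALE genes), or with a log2 ratio of at least 0.5 in size and the same sign in LT-HSC-like cells of both conditions. Genes called by edgeR were named too, after their values were seen. One TALE gene that met this rule is not reported here. Alternatives were the hashtag rule, cell filters, depth, scaling, added count, clustering, naming and the tool.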

Additional observations from a re-analysis of the deposited data

Results flagged for a closer look

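The genotype ratio of Meis1 over all kept cells had opposite signs in the 2 conditions, with a log2 ratio of 0.16 at homeostasis and −0.11 after 5-FU. That difference was not tested, since each condition had 1 pool per genotype. At homeostasis the ratio was −0.11 at fixed cluster weights, and in LT-HSC-like cells it was −0.07. Pbx4 also had opposite signs over all kept cells, with log2 ratios of −1.34 without treatment and 0.31 after 5-FU, and this difference was not tested either.

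Barcodes outside the kept cells also held these genes. Among 56160 barcodes with 10 to 100 UMIs at homeostasis, Meis2 was at 97.7 CPM (151 UMIs over 148 barcodes), whereas it was at 2.22 and 2.38 CPM in the kept wild-type and knockout cells. No single barcode held more than 2 of these UMIs, and Hoxb5 (5.82 CPM) and Hoxb4 (13.6 CPM) had no such excess over cells there. Meis1 was at 349.9 CPM in the 5-FU barcodes without a hashtag, against 319.2 and 296.5 CPM in the kept cells of that library.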

How the results depend on the processing

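No paired analysis was possible because the labels give a single replicate number, beyond the condition term of edgeR, which sets the genotypes against each other within each library. Leaving out a pool was not run, as no residual degree of freedom would remain. Of 766 alternative values of the 9 genes, 616 stayed within the counting interval of the reported ratio or on the same side of the edgeR threshold, 139 ratios fell outside that interval, and 10 edgeR calls were lost and 1 gained. No ratio of at least 0.5 in size changed sign (0), but some smaller knockout over wild type ratios of Hoxa5, Hoxa9, Hoxa10, Hoxb4, Meis1 and Meis2 did. For Pbx3 only the ratio of LT-HSC-like over other cells after 5-FU did (lowest −0.04), and its knockout over wild type ratio stayed above 0 in every setting. At fixed cluster weights the knockout over wild type ratios of Meis1 and Meis2 over all kept cells at homeostasis went from 0.16 to −0.11 and from 0.11 to −1.70. The cause of each change was not tested.

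Over all kept cells at homeostasis, the count of higher genes was 4 and became 2 at fixed cluster weights, with 1 lower (Meis2). In LT-HSC-like cells at homeostasis the count of higher genes was 3 and became 1 without the trim of extreme cells, without removal of lineage-positive cells and at fixed cluster weights. The count of lower genes there went from 0 to 1 (Meis2, −3.06 at the strongest) under every other setting but scaling by the median ratio, 1 count added and naming by marker count. After 5-FU the LT-HSC-like count of 2 became 1 without the trim and 0 with all variable genes in the clustering. Pbx3 ranged from 0.89 to 1.44 over all kept cells at homeostasis and from 0.78 to 0.95 after 5-FU, and Hoxb5 from 0.80 to 1.76 and from 0.65 to 1.10. In LT-HSC-like cells Pbx3 ranged from 0.44 to 0.90 and from 0.31 to 0.83, Hoxb5 from 0.34 to 0.95 and from 0.46 to 1.01, and Hoxa10 from 0.02 to 0.68 and from −0.01 to 0.51. Hoxb5 and Hoxa10 were each at least 0.5 in 11 of 15 settings at homeostasis.

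The edgeR count over all kept cells was 277 genes, and it was 510 with library size only, 612 without a count filter and 79 without the trim, where 1 of the 9 genes (Pbx3) was called in place of 3. DESeq2 called 211. In LT-HSC-like cells it was 437 genes, and it was 796 with library size only, 775 without a count filter, 39 with DESeq2, 27 where 1 tag had to hold at least 80% of the hashtag UMIs, and 887 with naming by marker count, chosen after seeing the data. Of the 9 genes, DESeq2 called 0 there and the 80% rule 1 (Pbx3). Few UMIs limit precision for Meis2 and, at homeostasis, for Hoxa5.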
